A study of Mus musculus with 2 samples.

Results

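The G1/S and DNA replication genes are a set of 40 genes chosen by symbol, out of 32285 genes measured, whose products license replication origins, unwind and copy DNA, supply nucleotides and histones, and control entry into S phase. All 40 were found in both libraries. They were read in single mouse bone marrow cells that carried RUNX1-S291fs, a truncated RUNX1 mutant expressed from a vector that also encodes GFP. Cells were either knockout for Phf6, a PHD-finger chromatin protein mutated in leukaemia (KO), or wild type for it (WT), so both groups carried the RUNX1 mutant and no group lacked it. Transduced cells were sorted by GFP and transplanted, and lineage-negative GFP-positive cells were sorted from recipient marrow 8 weeks later. The design holds 1 library per genotype, and the sources used here do not give the number, age or sex of the mice behind each. There is therefore no error between mice. Intervals are 95% intervals of counting error alone, and no p-value is given.

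Before S phase, the ORC, CDC6 and CDT1 proteins load rings of MCM subunits onto origins, and CDC45 and the GINS complex later turn each ring into an active helicase. E2F transcription factors, released from RB-family proteins by cyclin and CDK activity, drive most of these genes together as cells pass from G1 into S phase. Most haematopoietic stem cells rest outside the cell cycle, while committed progenitors divide often, so the summed level of such genes is widely used to describe how many cells of a population are replicating.

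The KO library held 5260 barcodes with 120408100 UMIs (counted RNA molecules) and the WT library 5287 barcodes with 131667969 UMIs. After filtering, 4709 KO and 4478 WT cells were kept, with median depths of 21421 and 24813.5 UMIs. Of the kept barcodes, 7 occurred in both libraries. Phf6 RNA stood at 20.6 UMIs per 1000000 (CPM, 19.8 to 21.5) in KO cells and at 41.8 CPM (40.6 to 42.9) in WT cells. It was lower but not absent in KO, and the labels do not name the deleted exons. Classes of cells were rebuilt from marker genes after the cell cycle lists had been left out of the clustering. HSC/MPP-like (haematopoietic stem and multipotent progenitor) cells numbered 1378 in KO and 1041 in WT. Their markers Hlf and Mecom, both stem cell transcription factors, stood in KO at 274.2 and 197.1 CPM, and at 8.39 and 6.56 CPM in committed cells. In WT they stood at 172.1 and 171.5 CPM in HSC/MPP-like cells and at 9.37 and 7.77 CPM in committed cells. Committed cells, of all other named classes, numbered 2160 in KO and 2467 in WT. Another 1171 KO and 970 WT cells lay in clusters that took no class name.

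Over all kept cells the 40 members ranged from 20.9 CPM for Exo1 to 206.3 CPM for Pcna in KO, and from 22.8 CPM for Ccne2 to 228.5 CPM for Pcna in WT. The counts come from the 3′ ends of transcripts, so they were not divided by gene length. Pcna, the sliding clamp that holds polymerases on DNA, was the most abundant member in both libraries. The order below it differed. In KO it ran Pola1, the catalytic subunit of polymerase alpha, Mcm6, a helicase subunit, and Nasp, a histone chaperone, at 183.6, 178.1 and 163.6 CPM. In WT it ran Nasp, Mcm6 and Pola1 at 207.1, 194.8 and 173.9 CPM. At the low end were Exo1, a DNA exonuclease, Ccne2, a cyclin E that activates CDK2, Dscc1, a clamp loader subunit needed for cohesion, and Cdc6, all under 32 CPM in both libraries.

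**Figure D1:**
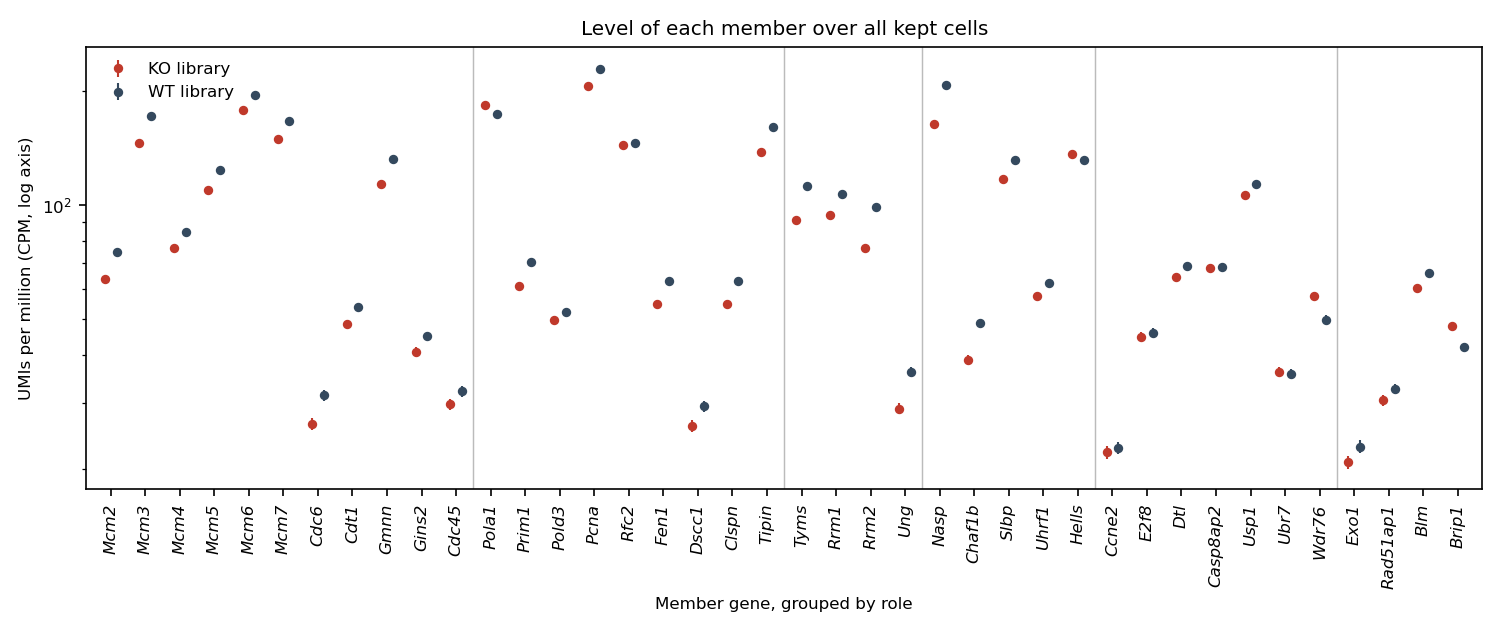
Level of each of the 40 members over all kept cells in CPM on a log axis, KO in red and WT in blue, with 95% Poisson intervals and grey lines between role groups (licensing and helicase; polymerase, clamp and fork; nucleotide supply; chromatin; regulators; repair). The KO point lies below the WT point for 35 of 40 members, most visibly for Nasp and Rrm2.

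Among the classes the members were highest in erythroid-like cells, in both libraries. Their summed level was 53.5 per 10000 UMIs (52.8 to 54.2) in KO and 59.0 (58.6 to 59.4) in WT erythroid-like cells. Monocyte-like cells followed with 38.8 in KO and 40.9 in WT. Neutrophil progenitor-like cells held 33.8 in KO and 30.3 in WT. Dendritic cell-like cells held 32.2 in KO and 32.9 in WT. HSC/MPP-like cells held 27.8 (27.6 to 28.0) in KO, below all of these, and 31.4 (31.2 to 31.6) in WT, above the neutrophil progenitor-like cells. Megakaryocyte-like cells held 20.9 in KO and 24.6 in WT, and basophil or mast cell-like cells 21.1 in KO and 19.7 in WT. B cell-like cells held 7.22 (6.34 to 8.18) in KO and 20.6 (19.4 to 21.9) in WT. Among the classes present in both libraries the lowest was the B cell-like class in KO and the basophil or mast cell-like class in WT. Plasma cell-like cells, 53 cells found only in the WT library, held 2.64.

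Single members followed the sum. The erythroid-like class was the highest of the classes for 33 of 40 members in KO and for 32 of 40 in WT. Slbp, which binds the stem-loop of histone mRNAs, stood at 244.3 CPM in KO and 295.7 CPM in WT erythroid-like cells. Hells, a chromatin remodeller, was an exception, highest at 181.5 CPM in KO neutrophil progenitor-like cells and at 158.5 CPM in WT monocyte-like cells. E2f8, a repressor of the E2F family, was highest in basophil or mast cell-like cells, at 114.5 CPM in KO and 124.2 CPM in WT. Rfc2, a clamp loader subunit, and Blm, a RecQ helicase, also peaked there in both libraries. Cdc45, Wdr76 and Brip1, a helicase that partners BRCA1, were highest in monocyte-like cells in both. The erythroid-like class is a mix of a haemoglobin-rich cluster of 17 KO and 73 WT cells and an earlier cluster of 78 KO and 182 WT cells. The haemoglobin-rich cluster had the highest sum of all clusters, 81.0 (79.2 to 82.9) in KO and 81.4 (80.6 to 82.3) in WT, so its libraries did not differ beyond counting error. The earlier cluster held 46.4 in KO and 50.5 in WT.

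**Figure D2:**
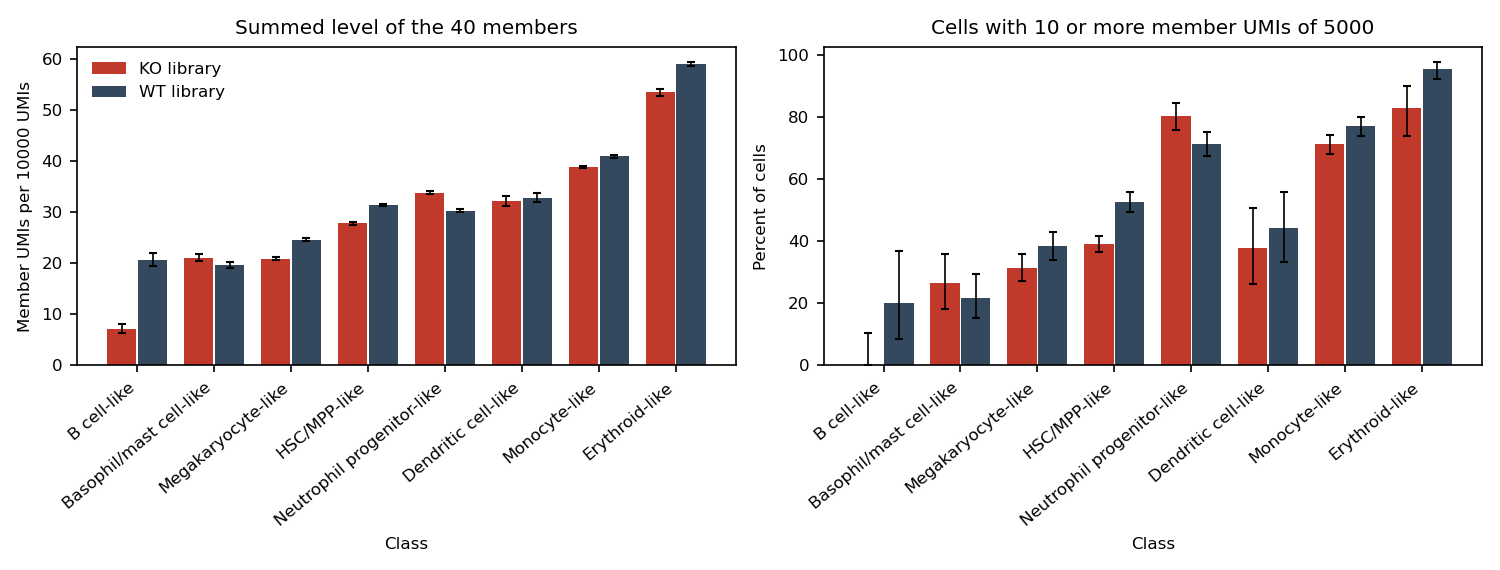
Left, summed level of the 40 members in UMIs per 10000 UMIs by class; right, percent of cells with 10 or more member UMIs after each cell was thinned to 5000 UMIs. Bars are the KO library (red) and the WT library (blue), with 95% Poisson (left) and Clopper-Pearson (right) intervals. Erythroid-like cells are highest, KO HSC/MPP-like bars lie below WT (27.8 and 31.4 on the left, 39.1 and 52.7 on the right), and neutrophil progenitor-like bars lie above WT.

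The members also varied together from cell to cell. To show this without using a gene to rank itself, cells thinned to 5000 UMIs were ranked by the sum of the other 39 members, and the gene's level in the upper 25% of cells was set against the lower 25%. For all 40 members the interval lay above equality in both libraries, as it did for 25.5% of 8584 genes. This has no test, and in sparse counts the sizes rest on few UMIs in the lower 25%. Rrm2, the small subunit of ribonucleotide reductase, had the largest ratio in both libraries. It had 844 UMIs in the upper and 19 in the lower 25% of KO cells, a 44.4-fold ratio, and 1015 and 18 UMIs in WT, a 56.3-fold ratio. Rad51ap1, a homologous recombination factor, had ratios of 35.7 in KO and 29.9 in WT. Uhrf1, which guides maintenance DNA methylation to new DNA, had ratios of 31.7 in KO and 20.3 in WT. Exo1 had ratios of 27.0 in KO and 33.8 in WT. At the other end stood Ubr7, a UBR-box protein and the lowest in KO, with ratios of 1.71 in KO and 2.15 in WT. Rfc2 had ratios of 1.89 in KO and 2.08 in WT, and Blm, the lowest in WT, 2.23 in KO and 1.94 in WT.

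Members also differed in whether they followed mitosis. When cells were instead ranked by 50 G2/M genes, Rrm2 kept log2 ratios of 5.23 in KO and 5.51 in WT. Rad51ap1 had 4.09 in KO and 4.16 in WT, and Clspn, a checkpoint adaptor at the fork, had 3.62 in KO and 3.90 in WT. Ung, the glycosylase that removes uracil from DNA, had log2 ratios of 4.90 in KO and 4.2 in WT by the members, and 1.14 in KO and 0.42 in WT by the G2/M genes. Across 19 clusters with at least 50 cells in each library, Ung also had the weakest rank correlation with the sum of the other members, 0.267 in KO and 0.247 in WT. Rrm1, the large subunit of ribonucleotide reductase, had the strongest in KO, 0.963, with 0.933 in WT. Cells, clusters and libraries share depth, so these are descriptions. Between libraries, 3 of 40 members had coupling intervals that did not overlap, against 6.59% of 8584 genes, so the members' share lay near that of all genes. Dtl, the adaptor that sends CDT1 for destruction, had a 15.7-fold ratio in KO and 7.63 in WT. E2f8 had a 5.93-fold ratio in KO and 3.20 in WT. Mcm7 had a 5.98-fold ratio in KO and 8.30 in WT.

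**Figure D3:**
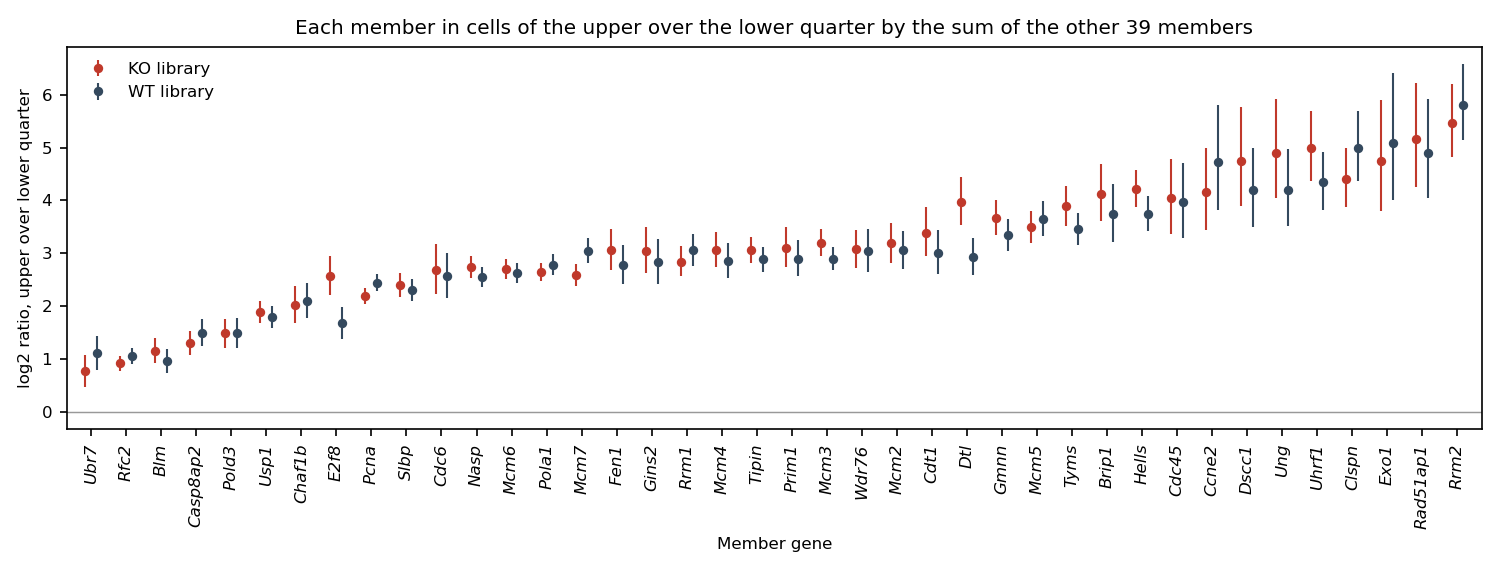
For each member, the log2 ratio of its level in cells of the upper over the lower 25% by the sum of the other 39 members, in cells thinned to 5000 UMIs, KO in red and WT in blue, with 95% intervals. Members run from Ubr7, Rfc2 and Blm, near a log2 ratio of 1, to Rrm2, above 5 in both libraries.

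Since E2F is a known common regulator of such genes, promoters were read from the RefSeq table for GRCm38.p6, each 250 bases before to 50 bases after a start. It held 31 of 40 members, without Mcm4, Gins2, Ccne2, Rfc2, Gmnn, Usp1, Exo1, Tipin and Dscc1. The 4 8-base words searched on both strands were of the E2F type, TTTCCCGC, TTTGGCGC, TTTCGCGC and TTTGCCGC. The CCAAT word was searched too. Words read on opposite strands can overlap and were then counted apart. An E2F word stood in the promoters of 14 of 31 members (45.2%), against 704 of 27025 genes in the table (2.6%). It stood in 16 of 44 other replication genes and in 3 of 44 G2/M genes. Among role groups it stood in 6 of 8 licensing and helicase genes and in 0 of 4 genes of nucleotide supply. CCAAT stood in 22 of 31 members, against 41.1% of all genes, and in 33 of 44 G2/M genes. The coupling of members with an E2F word had a median fold of 7.84 in KO and 7.53 in WT, against 8.42 in KO and 8.24 in WT for the 17 members without one. A word is a description of letters, and no match says only that these letters are not in the window.

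The 4 promoters printed here show the range, with E2F words in capitals. Mcm5 and Mcm6 encode subunits of the same helicase, and each holds a pair of overlapping words, the run of Mcm6 being that of Mcm5 read from the opposite strand. Mcm6 has a further word nearer its start. Rrm2, the member with the largest coupling ratio, has none, and Ubr7, with the smallest in KO, has 1.
Mcm5 (chr8:75109259-75109558, plus strand): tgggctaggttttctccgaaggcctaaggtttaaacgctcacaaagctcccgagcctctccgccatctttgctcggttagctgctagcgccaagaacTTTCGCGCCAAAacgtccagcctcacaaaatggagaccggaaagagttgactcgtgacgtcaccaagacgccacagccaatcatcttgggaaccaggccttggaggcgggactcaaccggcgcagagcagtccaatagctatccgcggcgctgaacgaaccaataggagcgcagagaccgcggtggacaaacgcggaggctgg
Mcm6 (chr1:128359656-128359955, minus strand): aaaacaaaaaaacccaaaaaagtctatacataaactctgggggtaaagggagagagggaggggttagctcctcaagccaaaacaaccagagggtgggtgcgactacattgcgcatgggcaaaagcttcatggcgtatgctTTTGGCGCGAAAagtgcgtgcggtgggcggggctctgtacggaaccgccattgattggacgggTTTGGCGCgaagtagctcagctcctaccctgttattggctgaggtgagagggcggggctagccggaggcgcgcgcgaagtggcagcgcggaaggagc
Rrm2 (chr12:24708004-24708303, plus strand): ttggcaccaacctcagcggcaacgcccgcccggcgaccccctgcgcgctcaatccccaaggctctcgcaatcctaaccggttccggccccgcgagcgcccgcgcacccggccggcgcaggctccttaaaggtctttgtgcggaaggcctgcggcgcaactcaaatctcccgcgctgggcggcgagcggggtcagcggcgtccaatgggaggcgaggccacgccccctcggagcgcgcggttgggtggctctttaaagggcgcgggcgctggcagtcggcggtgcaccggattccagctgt
Ubr7 (chr12:102757725-102758024, plus strand): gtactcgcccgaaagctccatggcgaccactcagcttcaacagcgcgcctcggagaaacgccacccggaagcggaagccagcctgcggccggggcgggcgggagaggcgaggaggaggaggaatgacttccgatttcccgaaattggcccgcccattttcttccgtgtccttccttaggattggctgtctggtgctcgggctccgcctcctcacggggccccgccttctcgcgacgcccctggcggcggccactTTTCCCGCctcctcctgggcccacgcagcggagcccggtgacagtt

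The first comparison across cells asked whether stem-like cells held fewer replication transcripts than committed cells, taken within each library. Set against all committed cells pooled, HSC/MPP-like cells were lower in both. The log2 ratio of the summed level was -0.33 (-0.34 to -0.31) in KO, from 27.8 in HSC/MPP-like and 34.8 in committed cells. It was -0.26 (-0.27 to -0.25) in WT, from 31.4 in HSC/MPP-like and 37.6 in committed cells. The size depends on which committed cells are counted. Without erythroid-like cells, which made up a larger part of the WT library, it was -0.26 in KO and -0.02 in WT. Giving equal weight to each of the 7 committed classes present in both libraries, it was -0.094 in KO and -0.053 in WT. With the 53 plasma cell-like cells as an eighth class, the WT ratio turned to 0.12. These choices were made with the values known. With likely doublets kept it was -0.076 in KO and -0.027 in WT. Against monocyte-like cells alone it was -0.48 in KO and -0.38 in WT. Against megakaryocyte-like cells, which include a cluster of low depth, the HSC/MPP-like sum was higher, by a log2 ratio of 0.41 in KO and 0.35 in WT. Against neutrophil progenitor-like cells this ratio of sums took opposite signs, -0.28 in KO and 0.05 in WT. The mean over single cells, however, was lower in HSC/MPP-like cells in both libraries. It was 23.5 against 32.6 per 10000 UMIs in KO and 27.1 against 29.2 in WT.

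Gene by gene, 11 of 40 members in KO and 7 of 40 in WT were at least 1.5-fold lower in HSC/MPP-like than in committed cells, against 13.3% of all genes in KO and 10.9% in WT. No member was 1.5-fold higher, against 22.2% of all genes in KO and 17.7% in WT. Intervals lay below 0 in both libraries for 29 members, against 28.4% of all genes, and above 0 in both for 3, against 45.8%. Rrm2 differed most. It stood at 30.6 CPM in HSC/MPP-like and 108.3 CPM in committed KO cells, a log2 ratio of -1.82 (-1.93 to -1.72). In WT it stood at 34.8 CPM in HSC/MPP-like and 131.0 CPM in committed cells, a log2 ratio of -1.91 (-2.02 to -1.81). Ccne2 was next in KO, at -1.15, and was at -0.71 in WT. Gmnn, the inhibitor of CDT1, was at -0.92 in KO and -0.79 in WT, and Cdc45 at -0.76 in KO and -0.86 in WT. Cdt1 was at -0.79 in KO and -0.71 in WT. The MCM subunits ran from -0.77 for Mcm5 to -0.23 for Mcm6 in KO and from -0.53 for Mcm5 to -0.15 for Mcm3 in WT. Among chromatin genes Nasp was at -0.76 in KO and -0.61 in WT, while Chaf1b, a subunit of the CAF-1 histone chaperone, was at 0.14 in KO and 0.03 in WT. Fen1, the flap endonuclease of lagging-strand synthesis, was at -0.55 in KO and -0.61 in WT.

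The 3 exceptions ran the other way in both libraries. Pola1 stood at 225.8 CPM in HSC/MPP-like and 167.7 CPM in committed KO cells, and at 224.2 CPM in HSC/MPP-like and 157.3 CPM in committed WT cells. Its log2 ratios were 0.43 (0.38 to 0.48) in KO and 0.51 (0.46 to 0.56) in WT. Blm was at 0.47 (0.39 to 0.55) in KO and 0.48 (0.41 to 0.56) in WT. Rfc2 was at 0.25 (0.19 to 0.30) in KO and 0.28 (0.22 to 0.33) in WT. Rfc2 and Blm were also among the 3 members least coupled to the rest, whereas Pola1 was coupled, with ratios of 6.25 in KO and 6.86 in WT.

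The second comparison set KO against WT. Over all cells the members were slightly lower in KO, by an amount that shrank when erythroid-like cells were left out. The median log2 ratio of the 40 members was -0.14, against 0.06 over 8584 genes. It was below 0 for 35 of 40 members, and for 38.8% of all genes. No member passed 1.5-fold in either direction, where 2.04% of all genes were higher and 1.25% lower. Intervals lay below 0 for 31 members, against 28.1% of all genes, and above 0 for 4, against 48.6%. They measure counting error within a pair of libraries and not the spread between mice. The summed level was 32.6 per 10000 UMIs (32.5 to 32.7) in KO and 36.0 (35.9 to 36.1) in WT. Erythroid-like cells, the class with the highest sum, made up 2.02% of KO and 5.69% of WT cells. Without them, an alternative added with the values known, the summed level was 31.7 in KO and 32.7 in WT, a log2 ratio of -0.04 (-0.05 to -0.04). The median of the members was then -0.03, against 0.05 over all genes, with 27 of 40 below 0. For 18 members the interval lay below 0 and for 7 above, counts with no share of all genes beside them. KO cells had the lower depth per cell, as given above, mitochondrial UMIs took 2.99% in KO and 2.72% in WT, and ribosomal protein genes 26.8% in KO and 27.6% in WT. The part of these in the result was not tested. In pooled cells of a library, fewer cells in S phase and less RNA per such cell cannot be told apart.

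By role, over all cells with erythroid-like cells included, all 4 genes of nucleotide supply and uracil removal were lower in KO, with a median of -0.31. Rrm2 (ENSMUSG00000020649, GRCm38 chromosome 12, 24708241 to 24714146, plus strand) had the lowest ratio of all members. It stood at 76.8 CPM (75.2 to 78.5) in KO and 98.8 CPM (97.0 to 100.6) in WT, a log2 ratio of -0.36 (-0.40 to -0.32). In erythroid-like cells, 2.02% of KO and 5.69% of WT cells, Rrm2 stood at 190.4 CPM in KO and 292.9 CPM in WT. The differing share of these cells thus enters its ratio, and ratios of single members without them are not given here. Ung stood at 28.9 CPM in KO and 36.3 CPM in WT, and Tyms at 91.0 CPM in KO and 112.1 CPM in WT. Rrm1 differed least of the 4, at -0.18. All 11 licensing and helicase genes were below 0, from -0.25 for Cdc6 to -0.12 for Cdc45. Among polymerase, clamp and fork genes 8 of 9 were below 0, from -0.22 for Tipin, a fork protection factor, to 0.08 for Pola1.

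Chromatin and histone supply held Nasp (ENSMUSG00000028693, chromosome 4, 116601052 to 116627941, minus strand) at 163.6 CPM (161.2 to 166.0) in KO and 207.1 CPM (204.5 to 209.7) in WT, a log2 ratio of -0.34. Chaf1b was at -0.32, while Hells was at 0.05. The group of cycle regulators was nearest to 0, with a median of -0.04 and a range from -0.10 for Usp1, a deubiquitinase of PCNA, to 0.21 for Wdr76. Wdr76, a WD40-repeat protein, was the member furthest above 0. It stood at 57.4 CPM (56.0 to 58.8) in KO and 49.7 CPM (48.5 to 51.0) in WT. Among repair genes, Exo1 was at -0.14 and Brip1 at 0.18, with 47.7 CPM in KO and 42.0 CPM in WT. Under median of ratios scaling, which shifts all ratios by -0.08, Hells and Pola1 lie below 0 and Wdr76 and Brip1 stay above it.

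**Figure D4:**
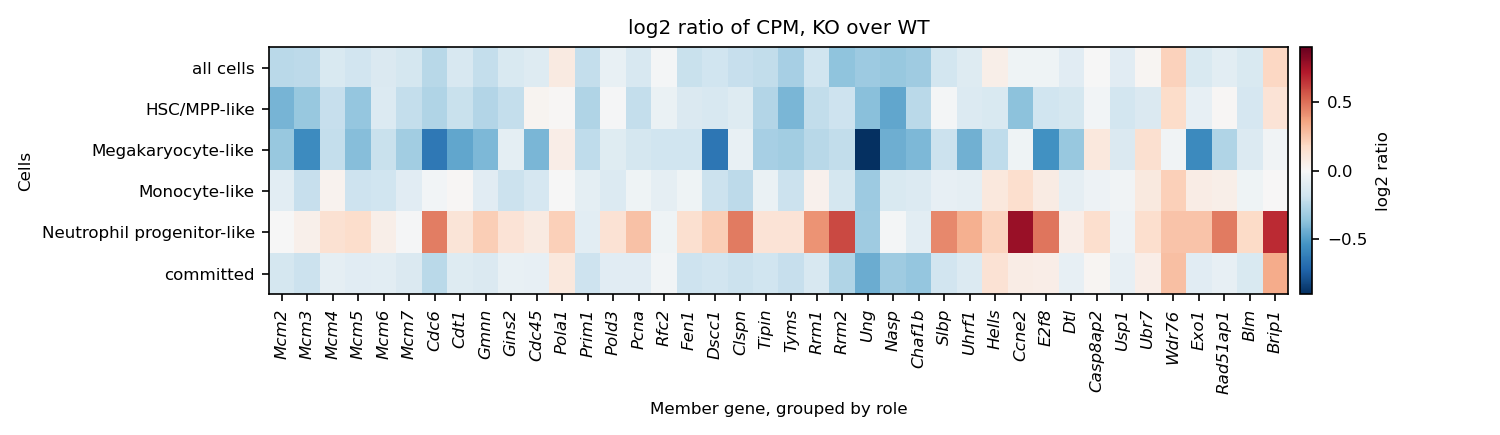
Log2 ratio of CPM, KO over WT, for each member (columns, by role group) in all cells, 4 classes with at least 200 cells per library, and committed cells together (rows). Blue is lower in KO and red higher. The neutrophil progenitor-like row is mostly red (median 0.15) and the megakaryocyte-like row mostly blue (median -0.23).

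In HSC/MPP-like cells the ratios were of similar size. The median log2 ratio was -0.17, against 0.06 over 8659 genes, and 35 of 40 members lay below 0. None passed 1.5-fold, where 3.35% of all genes were higher and 1.06% lower. Intervals lay below 0 for 27 members, against 22.7% of all genes, and above 0 for 1, Wdr76, against 37.3%. Nasp stood at 106.0 CPM (102.0 to 110.1) in KO and 146.5 CPM (141.5 to 151.6) in WT, a log2 ratio of -0.47, the lowest. Mcm2 stood at 47.1 CPM in KO and 62.9 CPM in WT, a log2 ratio of -0.42 (-0.53 to -0.30). Tyms stood at 80.4 CPM in KO and 107.0 CPM in WT, a ratio of -0.41. Ccne2, at 12.99 CPM in KO and 16.8 CPM in WT, had a ratio of -0.37. Pcna stood at 185.4 CPM in KO and 215.1 CPM in WT, Mcm6 at 154.8 CPM in KO and 168.5 CPM in WT, and Rfc2 at 159.4 CPM in KO and 166.1 CPM in WT. Pola1, the most abundant member there, stood at 225.8 CPM in KO and 224.2 CPM in WT and did not differ beyond counting error. Rrm2 was at -0.18. By role, licensing and helicase genes ran up to 0.02 for Cdc45, polymerase and fork genes from -0.27 for Prim1, the primase, to 0.01 for Pola1, and chromatin genes up to -0.02 for Slbp. Repair genes ran from -0.15 for Blm to 0.12 for Brip1. In cells with both a Hlf and a Mecom UMI the sums were closer, 29.2 per 10000 UMIs in KO and 30.4 in WT, a log2 ratio of -0.06 (-0.08 to -0.03), against -0.18 (-0.19 to -0.16) over the class. The sum pools all UMIs of these cells. Their share of cells with a high summed count, given below, stayed lower in KO. Median depth in these cells was 17559 UMIs in KO and 20142 in WT. Over the class it was 16744 UMIs in KO and 19769 in WT.

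The HSC/MPP-like class joins 3 clusters whose shares differed between libraries, and these were taken 1 by 1. A cluster led by Vldlr, with Hlf among its leading genes, made up 53.3% of the class in KO and 37.9% in WT. Its sum was 19.8 per 10000 UMIs in KO and 22.0 in WT, a log2 ratio of -0.15 (-0.18 to -0.12). A cluster led by Apoe made up 30.3% in KO and 42.0% in WT, with sums of 29.5 in KO and 31.6 in WT, a ratio of -0.10 (-0.12 to -0.07). The last was led by histone and mitosis genes, with 16.3% of the class in KO and 20.1% in WT. Its sums were 40.7 in KO and 40.8 in WT, with an interval of the log2 ratio from -0.03 to 0.02. Over the 19 clusters of at least 50 cells in each library, the sum was lower in KO in 15. Intervals lay below 0 in 12 and above 0 in 1.

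Committed classes were not alike. Of the 4 classes with at least 200 cells per library, megakaryocyte-like cells had the lowest median, -0.23, over the 39 members that reached 10 CPM. There 2 members were at least 1.5-fold lower in KO, against 1.05% of all genes, and 0 were higher, against 1.47%. Ung stood at 12.97 CPM (10.9 to 15.3) in KO and 24.2 CPM (21.5 to 27.0) in WT, a log2 ratio of -0.90 (-1.20 to -0.60). Dscc1 stood at 11.1 CPM in KO and 17.4 CPM in WT, a ratio of -0.65 (-0.99 to -0.32). Cdc6 was under 10 CPM on average, at 6.96 CPM in KO and 10.9 CPM in WT. Licensing genes ran from -0.57 for Mcm3 to -0.09 for Gins2, a GINS subunit, and chromatin genes from -0.44 for Nasp to -0.19 for Slbp. E2f8 was at -0.55 and Exo1 at -0.57, while Pola1 was at 0.06 and Ubr7 at 0.14. The most abundant members were Pcna at 168.1 CPM in KO and 187.1 CPM in WT, Pola1 at 168.5 CPM in KO and 161.4 CPM in WT, and Rfc2 at 124.0 CPM in KO and 140.2 CPM in WT. Monocyte-like cells had a median of -0.08, with no member past 1.5-fold, where 1.23% of all genes were higher and 0.668% lower. Their lowest ratio was -0.33 for Ung and their highest 0.21 for Wdr76. Clspn was at -0.24, Mcm3 at -0.20 and Hells at 0.09. Pcna led there with 245.4 CPM in KO and 252.2 CPM in WT, followed by Mcm6 with 199.7 CPM in KO and 226.1 CPM in WT.

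Neutrophil progenitor-like cells, 351 in KO and 549 in WT, had higher member levels in KO. The median log2 ratio was 0.15, against -0.03 over 7532 genes, and 8 of 40 members lay below 0. Intervals lay above 0 for 21 members, against 14.9% of all genes, and below 0 for 1, Ung, against 22.3%. At least 1.5-fold higher in KO were 3 members, against 1.57% of all genes, and 0 were lower, against 1.93%. Ccne2 stood at 26.3 CPM (23.4 to 29.5) in KO and 15.4 CPM (13.5 to 17.4) in WT, a log2 ratio of 0.78 (0.53 to 1.02). Brip1 stood at 30.3 CPM in KO and 19.1 CPM in WT, a ratio of 0.67. Rrm2 stood at 132.3 CPM in KO and 87.7 CPM in WT, a ratio of 0.59 (0.49 to 0.70). E2f8, Rad51ap1, Clspn, Cdc6 and Slbp had ratios of 0.48, 0.47, 0.47, 0.46 and 0.43. Nasp led in level, at 196.7 CPM in KO and 198.7 CPM in WT, and Prim1 and Chaf1b lay just below 0 at -0.09 and -0.10. The class joins a larger cluster led by Prg2, an eosinophil granule gene, with the neutrophil genes Camp and S100a9, and a smaller one led by S100a9 and S100a8. The larger scored highest for eosinophil markers, with a median log2 fold of 3.49. Only 1 of those markers passed the detection rule, fewer than that name needed. The smaller scored highest for neutrophil progenitor markers, at 2.17. Whether cells of the larger belong to the neutrophil or the eosinophil line was not tested. The larger held 286 KO and 500 WT cells, had sums of 32.0 in KO and 29.4 in WT and a median of 0.14, but no member past 1.5-fold. The smaller held 65 KO and 49 WT cells, with sums of 41.1 in KO and 36.8 in WT. At resolution 2 of the clustering, a Prg2-led cluster held 153 KO and 354 WT cells and again scored highest for eosinophil markers, at 3.98. A Camp-led cluster held 138 KO and 152 WT cells and scored highest for neutrophil progenitor markers, at 2.92. The mix of the class thus differed between libraries, and its part in the ratios was not tested. Over the class the 50 G2/M genes were higher as well, with a median of 0.29. Of the 40 members, 27 lay below 0 in HSC/MPP-like and above 0 in neutrophil progenitor-like cells. Of all genes, 40.4% lay below 0 in HSC/MPP-like and 57.5% in neutrophil progenitor-like cells. The share of all genes with both signs was not counted. Whether the classes differ in their KO effect cannot be tested with 1 library per genotype.

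Across the 4 classes of at least 200 cells per library, Ung was the 1 member with an interval below 0 in each. Wdr76 had an interval above 0 in 3 of them. How many of all genes did either was not counted. Over committed cells together the median was -0.11, and no member passed 1.5-fold (2.38% of all genes were higher and 1.73% lower). There 27 intervals lay below 0 (26.7% of all genes) and 4 above 0 (43.6%). Without erythroid-like cells the direction turned. The committed sum was then 33.2 in KO and 31.9 in WT, a log2 ratio of 0.06 (0.05 to 0.07). The member median was 0.06, near the 0.05 over all genes. For 4 members the interval lay below 0 and for 18 above, and these counts have no share of all genes beside them. Erythroid-like cells had a log2 ratio of the summed level of -0.14, with Rrm2 at 190.4 CPM in KO and 292.9 CPM in WT. Basophil or mast cell-like cells had a log2 ratio of the summed level of 0.10. Their median over the 38 members at 10 CPM or more was 0.009, with 18 below 0, while the G2/M genes had a median of 1.07. B cell-like cells had a ratio of -1.52, from 243 member UMIs in 51 KO cells and 1052 in 69 WT cells. The median was 4 member UMIs per thinned cell in KO and 3 in WT, while the 90th percentile was 5.8 in KO and 22.2 in WT, so few WT cells carried the higher sum.

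The members were also summed in each cell. All cells were brought to 5000 UMIs by random thinning, without 199 KO and 243 WT cells of lower depth, and a cell counted as high with 10 or more member UMIs. The cut is a point on the range of that same sum, not a cell type, so levels above and below it are descriptions. Of HSC/MPP-like cells, 532 of 1360 were high in KO (39.1%, 36.5 to 41.8) and 538 of 1021 in WT (52.7%, 49.6 to 55.8). The difference was -13.6 percentage points (-17.6 to -9.54). Within 2 UMIs of the cut lay 169 KO and 175 WT cells. Without thinning 84.7% of KO and 89.0% of WT cells had 10 or more. Giving the 3 clusters of the class equal weight, again a choice made with the values known, the shares were 50.1% in KO and 57.0% in WT. By cluster they were 22.1% in KO and 30.8% in WT in the Vldlr-led cluster, and 46.2% in KO and 58.5% in WT in the Apoe-led cluster. In the cluster led by histone and mitosis genes they were 82.1% in KO and 81.8% in WT. In HSC/MPP-like cells with both a Hlf and a Mecom UMI the shares were 39.4% in KO and 49.5% in WT. The difference in these cells was -10.0 percentage points (-15.8 to -4.17).

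Committed cells differed less, with 60.0% high in KO and 62.9% in WT, a difference of -2.87 points (-5.79 to 0.04) whose interval holds 0. Without erythroid-like cells the shares were 58.9% in both libraries, and with the 7 classes weighted alike they were 47.2% in KO and 52.7% in WT. Neutrophil progenitor-like cells were 80.4% high in KO and 71.5% in WT. Monocyte-like cells were 71.4% high in KO and 77.2% in WT, megakaryocyte-like cells 31.5% in KO and 38.5% in WT, and erythroid-like cells 83.0% in KO and 95.6% in WT. Of B cell-like cells 0 of 33 were high in KO, against 7 of 35 (20%) in WT. If 3 cells are taken as the most that a count of 0 can hide, the KO share could reach 9.09%, and the Clopper-Pearson bound is 10.6%. None of 44 WT plasma cell-like cells was high, where the same limits are 6.82% and 8.04%.

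**Figure D5:**
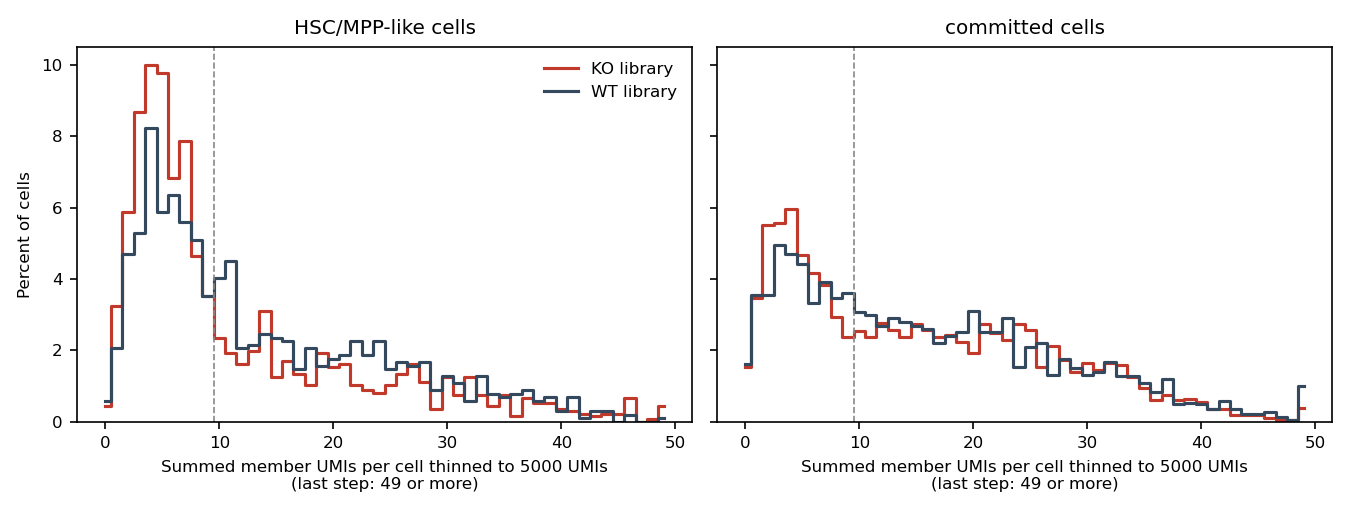
Percent of HSC/MPP-like (left) and committed (right) cells at each summed count of member UMIs after thinning to 5000 UMIs per cell, KO in red and WT in blue; the dashed line marks 10 UMIs and the last step holds 49 or more. In HSC/MPP-like cells more KO cells lie left of the line, with a median of 7 member UMIs in KO and 10 in WT, while the committed curves lie closer, with medians of 13 and 14.

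High HSC/MPP-like cells averaged 22.6 member UMIs in KO and 21.5 in WT, and cells below the cut averaged 4.84 in KO and 5.06 in WT. For each member, cells were then split by the sum of the other 39. In HSC/MPP-like cells high by the others, the median log2 ratio of KO over WT was 0.10, with 15 of 40 members below 0. Brip1 had 221 UMIs in 528 high KO cells and 128 in 536 high WT cells, a ratio of 0.81 (0.49 to 1.14). In cells below the cut, the median was -0.25, with 35 of 40 below 0. In committed cells the medians were -0.01 among high cells and -0.17 below the cut. All genes were not split this way, so these medians and counts have no background of their own. Over all genes the unsplit median was 0.06 in HSC/MPP-like and 0.05 in committed cells. Set beside the 50 G2/M genes with the same cut, HSC/MPP-like cells low in both lists made up 42.2% in KO (39.6 to 44.9) and 29.4% in WT (26.6 to 32.3). Cells high in both made up 29.9% in KO and 40.9% in WT. Cells high in the members alone made up 9.26% in KO and 11.8% in WT, and cells high in the G2/M genes alone 18.7% in KO and 17.9% in WT. The cut is not alike for the lists, because the G2/M list holds a far more abundant gene. In HSC/MPP-like cells its Hmgb2 stood at 1189.7 CPM in KO and 1418.0 CPM in WT. Pola1, the most abundant member there, stood at 225.8 CPM in KO and 224.2 CPM in WT. These shares are therefore not shares of cells in G2/M.

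The rest of the pathway was read from 50 further genes. Over all cells their median log2 ratio was -0.08, with 38 of 50 below 0. At least 1.5-fold lower in KO was 1 of 50, against 1.25% of all genes. That was Ccne1, the other cyclin E, at 15.4 CPM (14.7 to 16.2) in KO and 24.4 CPM (23.5 to 25.3) in WT, a ratio of -0.66. Its ratio without erythroid-like cells is not given here. In HSC/MPP-like cells Ccne1 was under 10 CPM, at 3.96 in KO and 4.63 in WT, a ratio of -0.23 (-0.64 to 0.18). Dut, which clears dUTP before it can enter DNA, stood at 268.4 CPM in KO and 346.6 CPM in WT, a ratio of -0.37. Pold2, a polymerase delta subunit, was also at -0.37. The highest were Rbl1, the RB-family protein p107, at 0.17, and Pold4 and Orc4, each at 0.10. In HSC/MPP-like cells the median was -0.12 over 46 genes, with none past 1.5-fold. Without erythroid-like cells the median over all cells turned to 0.01. The G2/M genes had medians of -0.10 over all cells, which came to -0.0033 without erythroid-like cells, and -0.13 in HSC/MPP-like cells. The last turned to 0.035 when the cycle lists were kept in the clustering.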

How the data were processed

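Both libraries were made from sorted lineage-negative GFP-positive mouse bone marrow cells with a 10x 3′ kit, per the labels. The authors deposited raw UMI counts per gene and called cell barcode. Cell Ranger is version 3.0.1 per the submitters' processing notes, which give the build as GRCm38, and version 6.0.2 per the file headers. The annotation behind the counts was not stated, and positions were looked up in GENCODE for GRCm38.

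Cells with at least 500 genes and at most 10% mitochondrial UMIs were kept, and the top Scrublet scores, 0.8% per 1000 barcodes, were removed as likely doublets (221 KO and 224 WT cells). Both libraries were clustered together on 2000 variable genes, leaving out mitochondrial, ribosomal protein, haemoglobin and sex-linked genes and the member, other replication and G2/M lists, with 30 principal components, 15 neighbours and Leiden resolution 1. A class needed a median marker log2 fold of 1, 3 markers each in 25% of cells, and no more markers of another class among the top 10 genes.

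UMIs were summed per library and class. Log2 ratios have exact conditional binomial intervals, levels exact Poisson intervals, shares Clopper-Pearson intervals and share differences Newcombe intervals, all at 95% and for counting error only. Median ratios use genes of at least 10 CPM, and a gene counts as higher or lower at 1.5-fold. The rule for naming members in a comparison took the 3 highest levels, each ratio past 1.5-fold, and the highest and lowest ratio of each role group; others were named after their values were seen. The ratio was run on simulated counts of 8584 genes, 200 of them changed, and intervals held the true ratio for 95% of changed genes. These counts were drawn per library from the Poisson model that the interval assumes, without variation between cells. That coverage therefore says nothing about variation between cells or mice. The members and lists were chosen with earlier results of these data known. Alternatives covered scaling, filters, doublets, clustering, thinning and the cut. Software: Python 3.11.15, scanpy 1.11.5, numpy 2.4.6, scipy 1.17.1, pandas 2.3.3, matplotlib 3.10.9, R 4.3.3 and edgeR 4.0.16, used for TMM factors.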

Additional observations from a re-analysis of the deposited data

How the results depend on the processing

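No paired analysis was possible because there is 1 library per genotype and no result comes from a test. The median log2 ratio of the members, KO over WT, stayed below 0 over all cells (-0.23 to -0.03), in HSC/MPP-like cells (-0.24 to -0.15), megakaryocyte-like cells (-0.30 to -0.13) and monocyte-like cells (-0.09 to -0.04), and above 0 in neutrophil progenitor-like cells (0.10 to 0.23), under every alternative run. Alternatives that moved a value by more than its interval follow. The cause of each move was not tested.

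With edgeR TMM scaling the medians were -0.21 for members over all cells, -0.24 for members in HSC/MPP-like cells, -0.15 and -0.19 for the other replication genes and -0.20 for G2/M genes in HSC/MPP-like cells. With median of ratios scaling they were -0.23, -0.24, -0.17, -0.19 and -0.20. These scalings shifted every log2 ratio over all cells by -0.07 and -0.08. With a filter of 1000 genes and 5% mitochondrial UMIs the members were at -0.23 in HSC/MPP-like and 0.23 in neutrophil progenitor-like cells, stem-like over committed was -0.35 in KO and -0.23 in WT, and committed high shares were 56.2% in KO and 60.4% in WT. Under that filter a Prg2-led cluster of 115 KO and 273 WT cells took no class name. The neutrophil progenitor-like and committed classes were then other sets of cells. With likely doublets kept, the members were at -0.13 in megakaryocyte-like cells and the G2/M genes at -0.041 in HSC/MPP-like cells, stem-like over committed was -0.076 in KO and -0.027 in WT, and HSC/MPP-like high shares were 47.9% in KO and 59.5% in WT.

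At resolution 0.5 the members were at -0.24 in HSC/MPP-like cells, stem-like over committed was -0.35 in KO and -0.21 in WT, and HSC/MPP-like high shares were 35.6% in KO and 49.2% in WT. At resolution 2 stem-like over committed was -0.28 in KO and -0.20 in WT. With cycle genes kept in the clustering the G2/M median in HSC/MPP-like cells turned to 0.035, stem-like over committed was -0.25 in KO and -0.15 in WT, and high shares were 41.9% in KO and 57.2% in WT. With 1703 genes that follow the cycle also left out, chosen after seeing the data, that G2/M median was 0.12, stem-like over committed was -0.24 in KO and -0.22 in WT, and the KO high share was 43.8%. With classes by marker score per cell the values were -0.049 for the G2/M genes, 0.10 for members in neutrophil progenitor-like cells, and -0.27 in KO and -0.20 in WT for stem-like over committed.

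As a mean per cell, the members were at -0.22 in HSC/MPP-like cells and stem-like over committed was -0.31 in KO and -0.18 in WT. Stem-like over committed was -0.38 in KO and -0.31 in WT without the 5 most abundant members, -0.25 in KO and -0.31 in WT in cells with Hlf and Mecom UMIs, and -0.34 in KO without low-depth megakaryocyte-like cells. It was -0.094 in KO and -0.053 in WT with committed classes weighted alike, and turned to 0.12 in WT with plasma cell-like cells included. Committed high shares were then 47.2% in KO and 52.7% in WT without plasma cell-like cells. Without erythroid-like cells the medians over all cells were -0.029 for members, 0.013 for the other replication genes and -0.0033 for G2/M genes, stem-like over committed was -0.26 in KO and -0.023 in WT, and the WT committed high share was 58.9%. These settings, the one without low-depth megakaryocyte-like cells, and the clusters of the HSC/MPP-like class weighted alike (50.1% high in KO and 57.0% in WT), were chosen after seeing the data.

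High shares in HSC/MPP-like cells were 71.8% in KO and 79.1% in WT at a cut of 5, 21.0% in KO and 27.8% in WT at 20, and 84.7% in KO and 89.0% in WT unthinned. In committed cells they were 78.0% in KO and 81.6% in WT at 5, 35.0% in KO and 36.1% in WT at 20, 82.4% in KO and 83.7% in WT unthinned, and 63.5% in KO and 66.0% in WT thinned to 10000 UMIs with a cut of 20. Depth limits genes near 10 CPM in small classes, where intervals span more than 1.5-fold.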
